A study of Mus musculus with 12 samples.

Results

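Scrt1 and Scrt2 encode the mouse Scratch proteins, and their transcripts were followed in the lumbar spinal cord of MitoCharc1 and WT mice. These 2 genes, of 49548 counted, were found by symbol. Scrt2 was selected on its normalized read count, which was lower in every MFN2 library than in every WT library, and Scrt1 was taken with it as the other Scratch gene of the mouse. Both passed the filter on low counts. The comparison of genotypes therefore chose the pair, and its values for Scrt1 and Scrt2 are given as a description, with no test.

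The 8 MFN2 mice were hemizygous animals of the MitoCharc1 line on a B6;D2 background, with the transgene Tg(Eno2-MFN2*R94Q)L51Ugfm. They carry human MFN2 with the R94Q change under the neuron-specific rat Eno2 promoter, beside both of their own Mfn2 copies. The 4 WT mice are labelled C57BL/6 and are described in the methods as littermates. All mice were untreated and 30 days old, with 1 library per mouse and total counts between 19359454 and 26738930. The libraries carry the numbers 41 to 47 and 72 to 76. WT libraries are numbered 44 to 47 and MFN2 libraries 41 to 43 and 72 to 76, so that the first run of numbers holds both genotypes and the second only MFN2 mice.

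Scratch proteins are zinc finger repressors of the Snail superfamily that are found mainly in neurons. They bind E-box sequences through C2H2 zinc fingers, and the SNAG domain at their N-terminus recruits corepressors such as LSD1 (encoded by Kdm1a). In the developing nervous system they act as newborn neurons leave the progenitor layer, and their expression persists in mature neurons.

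Scrt1 (ENSMUSG00000048385) lies on the minus strand at chr15:76516203-76522499 of GRCm38, and Scrt2 (ENSMUSG00000060257) on the plus strand at chr2:152081529-152095802. No other annotated gene, coding or noncoding, overlapped either of them on either strand. The first 60 coding bases are shown because they encode the N-terminus, where the SNAG domain lies. They lie in exon 1, at chr15:76521646-76521705 for Scrt1 and at chr2:152082050-152082109 for Scrt2. Capitals mark the bases that differ between the genes, and 36 of the 60 are identical.
Scrt1: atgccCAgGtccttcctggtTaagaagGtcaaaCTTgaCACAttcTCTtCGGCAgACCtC
Scrt2: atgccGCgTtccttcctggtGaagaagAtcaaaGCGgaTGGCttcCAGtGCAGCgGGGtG

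Over the aligned coding sequences, 704 of 898 bases (78.4%) were identical. The longest run of bases shared by the longest annotated transcripts of the genes is shown because it bears on whether reads could be assigned to the wrong paralog. It held 38 bases of coding exon 2, at chr15:76518893-76518930 and chr2:152093697-152093734.
Shared run: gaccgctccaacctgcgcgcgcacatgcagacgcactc
The reads were 75 bases long, and 0 windows of 75 bases were identical between the 2 transcripts. A full-length read from either of these transcripts could therefore not match both exactly. The shorter annotated transcript of Scrt1 (3478 bases) was not compared.

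Scrt1 was an abundant transcript of the cord and Scrt2 a moderate one. Counts were scaled to library size with TMM factors (CPM), and RPKM is the CPM divided by exon length in kilobases (4380 bases for Scrt1 and 3395 for Scrt2). The RPKM level of Scrt1 in WT mice was 38.7 ± 1.86 (SD, n = 4), and that of Scrt2 in the same mice was 4.08 ± 0.225 (SD, n = 4). In WT mice the RPKM of Scrt1 exceeded that of 94.5% of 15902 tested genes with a known length, and Scrt2 exceeded 50.6% of them. In MFN2 mice the levels were 27.6 ± 4.75 RPKM for Scrt1 and 2.92 ± 0.264 RPKM for Scrt2 (SD, n = 8). The RPKM ratio of Scrt1 to Scrt2 was 9.52 ± 0.941 in WT mice (SD, n = 4) and 9.50 ± 1.55 in MFN2 mice (SD, n = 8). Over single libraries this ratio ranged from 7.10 in MFN2 library 43 to 11.7 in MFN2 library 41. The range of the WT libraries, 8.21 to 10.3, lay within that of the MFN2 libraries.

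MFN2 library 43 stood apart from the other 11 in its sums of forebrain, caudal Hox and motor neuron genes. Genes of the forebrain list, which normal lumbar cord expresses weakly, summed to 3744 CPM in it, against 141 to 196 CPM in the other MFN2 libraries and 106 to 145 CPM in WT libraries. The caudal Hox genes, which mark the lumbar level, summed to 24.6 CPM there and to between 94.6 and 185 CPM elsewhere. Motor neuron genes such as Chat and Isl1 summed to 35.5 CPM there, and to between 154 and 263 CPM in the other MFN2 libraries and 178 and 370 CPM in WT. Fold changes of the pair, its correlations within MFN2 mice and the lists of related genes are also given without library 43.

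Scrt2 was at 13.9, 13.3, 13.3 and 14.9 CPM in WT libraries 44 to 47. It was at 10.4, 10.3 and 10.3 CPM in MFN2 libraries 41 to 43. In MFN2 libraries 72 to 76 its CPM levels were 9.67, 8.68, 8.53, 10.3 and 11.1. The genotypes did not overlap, as the choice of the gene required, and the highest MFN2 library (number 76, 11.1 CPM) lay below the lowest WT library (number 45, 13.3 CPM). The log2 fold change of MFN2 against WT was -0.48 (standard error 0.083), a linear ratio of 0.715. Of the 15942 genes tested, 1.07% were lower in every MFN2 than in every WT library.

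Scrt2 was lower than WT by about as much in both sets of MFN2 libraries. Against the same WT libraries, which the values share, the log2 fold change was -0.41 for libraries 41 to 43 and -0.52 for libraries 72 to 76. In any comparison of libraries 72 to 76 with WT, genotype and run of numbers cannot be told apart. With the run of numbers as a covariate over all 12 libraries the log2 fold change was -0.42. The second run holds no WT library, so that this value rests on libraries 41 to 43 against WT and is no separate estimate. Without a covariate, leaving out library 43 gave a log2 fold change of -0.49, and libraries 41 and 42 alone gave -0.41. Each set lay below every WT library, as did 4.28% of all tested genes for libraries 41 to 43 and 10.2% for libraries 72 to 76. Between 173 and 319 reads were counted on Scrt2 per library, so that counting alone gives an error of 5.60% to 7.60% in each value. The spread between MFN2 libraries was 9.05% of the mean, and the spread between libraries 41 to 43 (0.695%) was smaller than counting error.

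Scrt1 was at 170, 177, 173 and 158 CPM in WT libraries 44 to 47. It was at 157.6, 145 and 94.6 CPM in MFN2 libraries 41, 42 and 43, where library 43 was the lowest of all 12. In libraries 72 to 76 its CPM levels were 108, 119, 108, 113 and 123. Every MFN2 library was again below every WT library, but library 41 (157.6 CPM) and WT library 47 (158.0 CPM) were closer than the counting error of 1.56% and 1.82%. The log2 fold change was -0.49 (standard error 0.12), a linear ratio of 0.714. Of the tested genes, 542 (3.40%) had a log2 fold change at or below that of Scrt1, and 545 (3.42%) at or below that of Scrt2.

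Scrt1 varied among the MFN2 mice. Against WT, libraries 41 and 42 alone gave a log2 fold change of -0.15, libraries 41 to 43 gave -0.34 and libraries 72 to 76 gave -0.57. With the run as a covariate over all 12 libraries the log2 fold change was -0.36, which again rests on libraries 41 to 43 against WT. Without a covariate, leaving out library 43 gave -0.44. The standard deviation of log2 CPM over the MFN2 libraries was 0.24 for Scrt1 and 0.13 for Scrt2, while in WT libraries it was 0.071 and 0.078. Whether the spread of the genes differed was not tested. For both genes all 8 MFN2 libraries lay below every WT library with upper-quartile scaling and with library size alone as well, where 1.12% and 0.621% of all tested genes did, and for Scrt2 this is the rule that chose it.

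**Figure D1:**
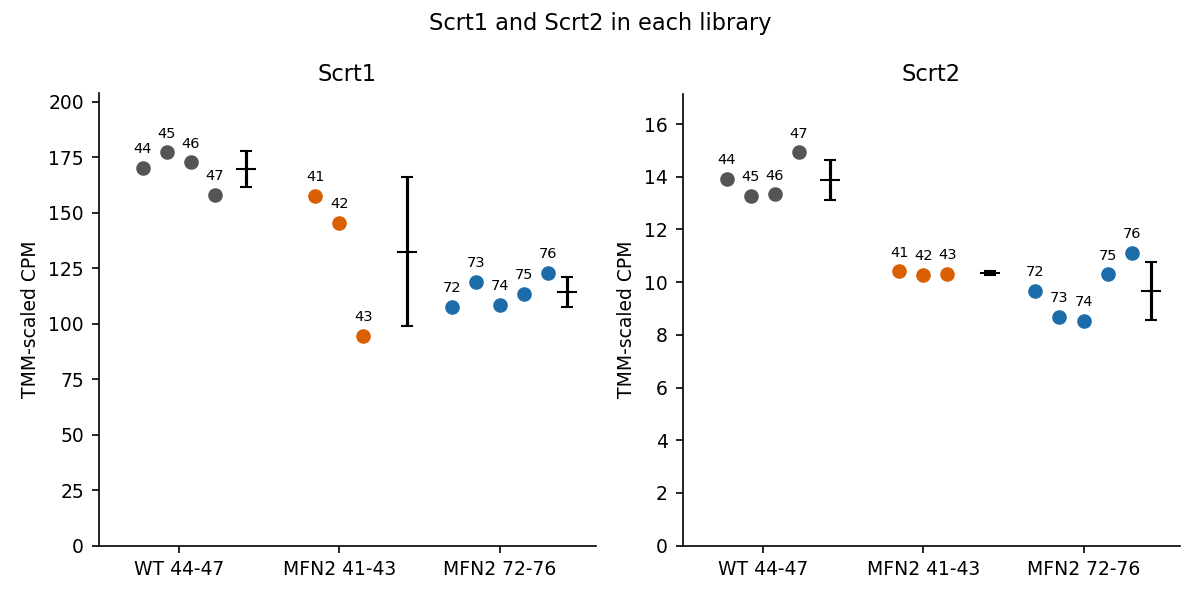
TMM-scaled CPM (vertical axes, from 0) of Scrt1 and Scrt2 in each library, labelled by its number and grouped as WT (grey), MFN2 41 to 43 (orange) and MFN2 72 to 76 (blue), with the mean ± SD of each set as a black bar. Scrt2 lies at 11.1 CPM or less in the 8 MFN2 libraries and at 13.3 CPM or more in WT, whereas Scrt1 spans 94.6 to 157.6 CPM in MFN2 libraries and reaches the lower edge of WT.

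The contrast between runs of library numbers within the MFN2 mice was not used to choose the genes, and it was tested with edgeR's quasi-likelihood test. Of 15633 genes tested, 2.19% passed an FDR of 0.05 between libraries 72 to 76 and 41 to 43, and 1.18% were lower in the second run. Of the 342 genes called, 157 were higher with TMM scaling, against 259 of 372 with upper-quartile scaling and 281 of 386 with library size alone. Scrt1 differed by -0.23 on the log2 scale (standard error 0.14, adjusted p = 0.335 with Benjamini-Hochberg adjustment, n = 5 and 3), with a 95% interval from -0.55 to 0.085. Scrt2 differed by -0.12 (standard error 0.11) with an adjusted p of 0.528 in edgeR and an interval from -0.37 to 0.13. The 3 values of Scrt2 in the first run lay within the 8.53 to 11.1 CPM of the second, and those of Scrt1 lay on both sides of the 108 to 123 CPM of the second. Neither gene was thus lower in every library of the second run, as 8.63% of all tested genes were. Library 43 decided the call for Scrt1. Without it, Scrt1 was lower in libraries 72 to 76 than in 41 and 42 by -0.42 on the log2 scale (adjusted p = 0.00323 from edgeR, n = 5 and 2), in a fit where 15.3% of all tested genes passed and 7.98% were lower, while Scrt2 differed by -0.11 (adjusted p = 0.598 from edgeR).

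Across the 8 MFN2 libraries, where the choice of the genes does not fix the relation, the correlation of the paralogs was weak and did not pass the test. Pearson's r between the log2 CPM of Scrt1 and Scrt2 was 0.281 (exact permutation p = 0.520, adjusted p = 0.633 over 3 correlations, n = 8) and Spearman's rho was 0.357 (exact permutation p = 0.389). Leaving out the 2 libraries farthest from the median of Scrt2, numbers 73 and 74, gave an r of 0.247 (exact permutation p = 0.681), and leaving out library 43 gave 0.485 (exact permutation p = 0.259). With each library taken as its deviation from the mean of its own run of numbers, a form added after the data were seen, r was 0.145 (exact permutation within runs, p = 0.372).

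As both genes are neuronal, their levels were set beside 14 general neuron markers, among them Rbfox3 (NeuN), Snap25 and Tubb3. Of the 14 markers, 0 passed an FDR of 0.05 between genotypes in edgeR, where 0% of all tested genes passed, and 0 had an unadjusted p under 0.05, where 15.0% of all tested genes did. With DESeq2 1 passed, the vesicle calcium sensor Syt1, which was highest in library 43 (1159 CPM), beside 1.25% of all tested genes. Their median log2 fold change was 0.021, beside 0.0038 over all tested genes. Without library 43 it was 0.062, and 2 markers were higher and 1 lower at an unadjusted p under 0.05, where 10.7% and 10.4% of all tested genes were, with 0 past the FDR in edgeR. The markers summed to between 8830 and 14780 CPM in MFN2 libraries and between 11094 and 14385 CPM in WT libraries, and Nefm was the most abundant. The lowest sum was that of library 43. No neuron marker was at 0 in any library.

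Set against the mean log2 CPM of the neuron markers, the genotype difference was -0.55 for Scrt1 and -0.53 for Scrt2, at least as large as without this reference. Without library 43 it was -0.50 and -0.54. On this scale Scrt2, which the rule had chosen for its non-overlap, was lower in all 8 MFN2 libraries than in any WT library, as were 1.51% of all tested genes. Scrt1 was lower in 7, and 7.41% of all tested genes were lower in 7 or more. Across the MFN2 libraries, the neuron marker mean had a Pearson's r of -0.200 with Scrt1 (exact permutation p = 0.633, Spearman's rho -0.310 with exact permutation p = 0.462, n = 8). With Scrt2 it had an r of 0.253 (exact permutation p = 0.539, Spearman's rho -0.190 with exact permutation p = 0.665, n = 8). Both had an adjusted p of 0.633 by exact permutation over the 3 correlations. Without the libraries farthest from the median of the marker mean, 41 and 73, r was 0.422 for Scrt1 (exact permutation p = 0.422) and -0.071 for Scrt2 (exact permutation p = 0.903). Without library 43 it was -0.369 (exact permutation p = 0.415) and 0.296 (exact permutation p = 0.527). As deviations from the run means it was -0.131 (exact permutation p = 0.817) and 0.379 (exact permutation p = 0.490). In bulk tissue, fewer neurons of the kinds that express a gene and less of its RNA per neuron cannot be told apart.

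The genes most like Scrt1 across the 12 libraries included genes known from astrocytes. The 5 highest Pearson correlations of log2 CPM were with Gpr37l1 (0.981) and Ntsr2 (0.978), receptors known from astrocytes, with Dao (0.973), the D-amino acid oxidase of astrocytes of the hindbrain and cord, and with Pbxip1 (0.968) and Kcne1l (0.966). Without library 43, over 11 libraries, they were Tril (0.977), Ntsr2 (0.976), Gpr37l1 (0.975), Pank2 (0.975) and Sphk2 (0.972). Between the paralogs the correlation was 0.760 over 12 libraries and 0.818 without library 43. Scrt2 held rank 1185 among genes like Scrt1 (1029 without library 43), and Scrt1 rank 211 among genes like Scrt2 (218 without it). These genes were picked as the highest of all tested genes and share libraries and genotype split with Scrt1, so that the values describe the pattern only.

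Scrt2 was most like other genes. Its 5 highest correlations over 12 libraries were with Eif1b (0.939), a paralog of the translation start-site factor eIF1, the annotated gene Gm38336 (0.911), Atp5j2 (0.906), a subunit of mitochondrial ATP synthase, Slc33a1 (0.898), an acetyl-CoA transporter, and Vgll4 (0.898), a cofactor of TEAD factors. Without library 43 they were Hgsnat (0.957), Rhoq (0.953), Eif5a (0.949), Coa5 (0.943) and Eif1b (0.941). Of the 5 genes, 1 was common to both of its lists (Eif1b), and for Scrt1 2 were (Gpr37l1 and Ntsr2). The genes most like Scrt2 were likewise picked as the highest of all tested genes. They share with it the genotype split on which Scrt2 was chosen, so that these values also describe the pattern only.

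Astrocyte markers were also set beside the pair. The list of 7 (Gfap, Aqp4, Aldh1l1, Slc1a2, Slc1a3, Gja1 and S100b) summed to 7267, 8241, 7210 and 7598 CPM in WT libraries 44 to 47. The sums were 8892, 6278 and 5839 CPM in MFN2 libraries 41, 42 and 43, and 5158, 5567, 5316, 5231 and 6713 CPM in libraries 72 to 76. The glutamate transporter gene Slc1a2 was the most abundant, and no marker of the list was at 0. Library 41 had a higher sum than any WT library, and libraries 72 to 75 had the lowest sums. In library 43, where Scrt1 was lowest, Slc1a2 made up 4232 CPM of the sum, while Gfap, Aqp4, Aldh1l1, Gja1 and S100b were each at their lowest among MFN2 libraries. In edgeR 0 of the 7 markers passed an FDR of 0.05 between genotypes, 6 had a negative log2 fold change and 1 an unadjusted p under 0.05, S100b, beside 15.0% of all tested genes. Slc1a3 had a positive one with library 43 (562 CPM) and one of -0.11 without it, when all 7 were negative. Their median log2 fold change was -0.26, beside 0.0038 over all tested genes. Without library 43 the median of the markers was -0.21, and DESeq2 called 0 of them with all libraries.

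Relative to the mean log2 CPM of these astrocyte markers, a reference chosen after the values were seen, the genotype difference of Scrt1 was -0.11, where its mean log2 CPM without a reference was 6.90 in MFN2 and 7.40 in WT mice. Its SD over the MFN2 libraries was 0.096 on this scale and 0.24 without the reference, and 6 of 8 MFN2 libraries lay below every WT library, where 0.634% of all tested genes had 6 or more. For Scrt2 the difference was -0.095, but its SD over the MFN2 libraries was 0.28 on this scale and 0.13 without, and 4 of 8 libraries lay below every WT library, where 2.16% of all tested genes had 4 or more. Single libraries moved it: the difference of Scrt2 on this scale was -0.16 without library 43, -0.025 without MFN2 library 41 and -0.045 without WT library 47, and that of Scrt1 was -0.12 without library 43. The mean of the astrocyte markers itself was 8.68 ± 0.292 in MFN2 mice (SD, n = 8) and 9.07 ± 0.0681 in WT mice (SD, n = 4), a difference of -0.39. This scale takes that difference from every tested gene alike. The smaller differences of the pair and the small shares of genes below WT on this scale follow from this shift by arithmetic. The part of the astrocyte markers in the difference of either gene was not tested.

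**Figure D2:**
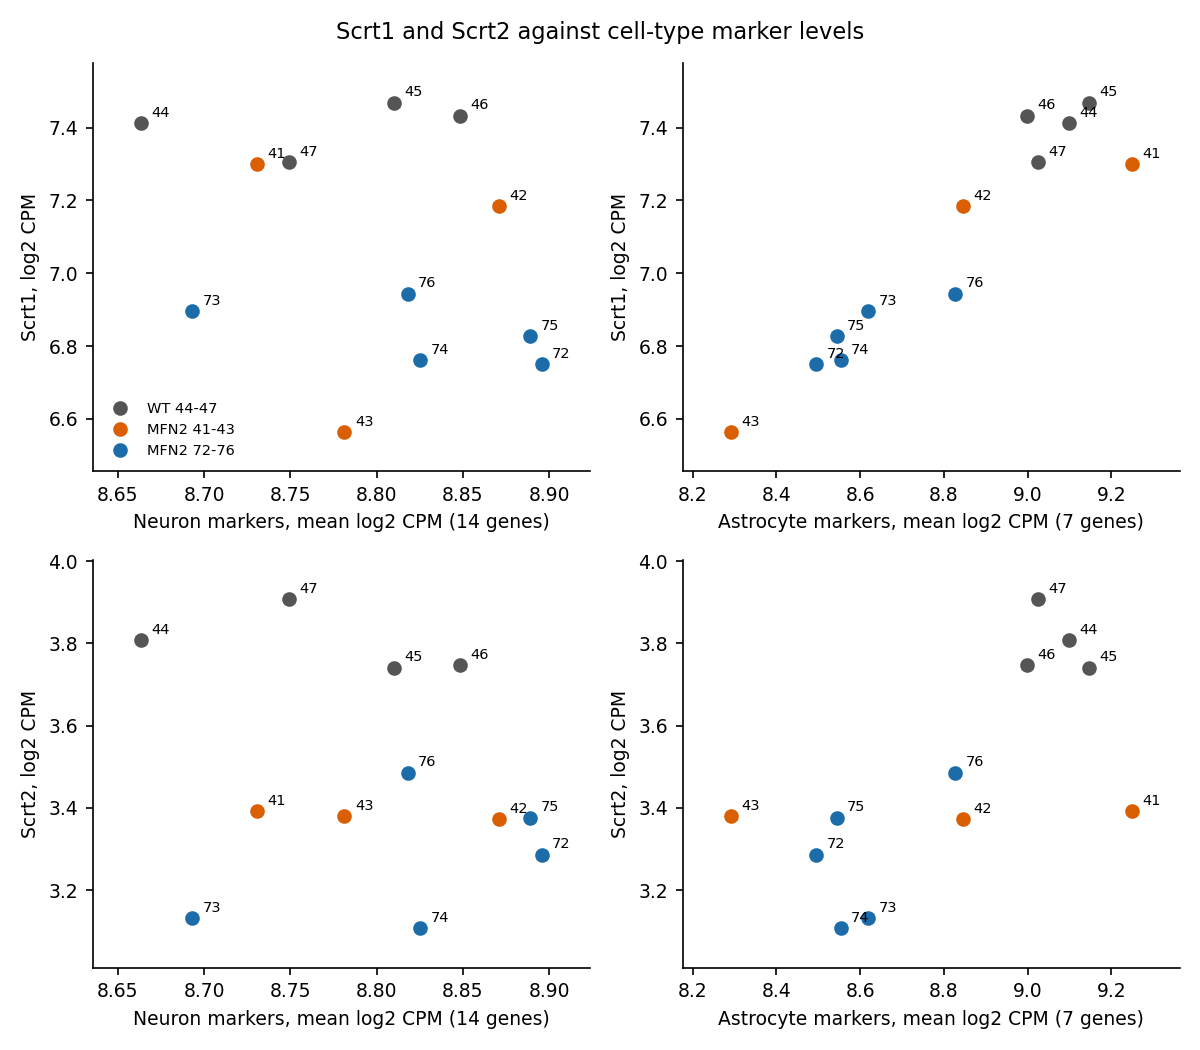
Log2 CPM of Scrt1 (top) and Scrt2 (bottom) against the mean log2 CPM of 14 neuron markers (left) and of 7 astrocyte markers (right), 1 point per library, labelled by its number and coloured as WT (grey), MFN2 41 to 43 (orange) and MFN2 72 to 76 (blue). Scrt1 is lowest in library 43, where the astrocyte mean is lowest as well, whereas Scrt2 stays between 3.37 and 3.39 in libraries 41 to 43 over the whole range of the astrocyte mean.

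Genes next to the pair were compared to see whether the differences extended to their surroundings. Dgat1, which encodes an enzyme of triglyceride synthesis and lies 4249 bases from Scrt1, averaged 9.60 ± 0.775 CPM (SD, n = 8) in the MFN2 group and 10.02 ± 0.982 CPM (SD, n = 4) in the WT group. Its log2 fold change was -0.061, with an adjusted p of 0.748 in edgeR. Tmem249, on the other side, was not analysed here. Srxn1, which encodes sulfiredoxin and lies 9713 bases from Scrt2, averaged 84.9 ± 13.9 CPM (SD, n = 8) against 87.1 ± 2.42 CPM (SD, n = 4), and its log2 fold change was -0.038, with an adjusted p of 0.899 in edgeR. Slc52a3, a riboflavin transporter gene 72270 bases from Scrt2, was near the filter at 1.19 and 1.13 CPM, with an adjusted p of 0.922 in edgeR.

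The rest of the family was barely expressed. On the RPKM scale Snai2 (Slug) averaged 0.401 in MFN2 and 0.424 in WT mice, Snai1 (Snail) 0.137 and 0.109, and Snai3 0.0106 and 0.0207. All 7 genes listed for Snail and other SNAG domain proteins averaged 0.424 RPKM or less in each genotype, below the 2.92 and 4.08 RPKM of Scrt2, and Insm1 alone passed the filter. It averaged 1.25 CPM in MFN2 mice and 0.680 CPM in WT mice and had an adjusted p of 0.398 in edgeR, with 3.33 CPM in library 43, and did not pass the filter without that library.

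Corepressor partners of SNAG domains centred near 0 between genotypes. All 16 were tested and 0 passed an FDR of 0.05 in edgeR, where 0% of all tested genes passed. At an unadjusted p under 0.05, 3 were higher and 2 lower, beside 7.40% and 7.57% of all tested genes, and the median log2 fold change was 0.039. Without library 43 the counts were also 3 and 2, beside 10.7% and 10.4% of all tested genes in that fit, and the median was -0.011. The members with the lowest p were Hdac2, a histone deacetylase, with a log2 fold change of 0.22, Ehmt1, a histone H3K9 methyltransferase, with 0.20, and Limd1, an Ajuba family LIM protein, with -0.33. Their adjusted p was 0.254, 0.254 and 0.308 in edgeR. Ehmt1 was higher in all 8 MFN2 libraries (47.9 to 53.4 CPM) than in any WT library (41.4 to 46.1 CPM), where 0.979% of all tested genes were. DESeq2 called 2 of the 16, Hdac2 (adjusted p = 0.0258) and Ehmt1 (adjusted p = 0.0351), and 1.25% of all tested genes. Kdm1a, which encodes LSD1, was the remaining member of the 3, at 61.9 ± 5.15 CPM (SD, n = 8) and 55.5 ± 1.28 CPM (SD, n = 4) with an adjusted p of 0.310 in edgeR.

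Of 11 E-box factors, which include the E proteins, the Id proteins that sequester them, and the Zeb repressors, 0 passed an FDR of 0.05 in edgeR and DESeq2, and the median log2 fold change was -0.11. At an unadjusted p under 0.05 3 were lower and 0 higher, all Id genes, beside 7.57% and 7.40% of all tested genes. Without library 43 the counts were 3 and 0, beside 10.4% lower and 10.7% higher of all tested genes in that fit, and the median was -0.064. Id1 had a log2 fold change of -0.51, Id3 of -0.43 and Id2 of -0.29, with an adjusted p of 0.278, 0.278 and 0.285 in edgeR. Against WT, libraries 41 to 43 gave -0.33, -0.14 and -0.060 for Id1, Id3 and Id2, and libraries 72 to 76 gave -0.63, -0.63 and -0.44. The genotypes overlapped for both Id1 and Id3. Id1 ranged from 4.34 to 7.52 CPM in MFN2 and from 5.54 to 9.84 CPM in WT libraries. Id3 ranged from 7.73 to 13.4 CPM in MFN2 and from 11.5 to 16.6 CPM in WT libraries.

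Neuronal zinc finger repressors other than Scratch had a median log2 fold change of 0.061, and 0 of 11 passed an FDR of 0.05 in edgeR and DESeq2. At an unadjusted p under 0.05 2 were higher and 0 lower, beside 7.40% and 7.57% of all tested genes. They were Myt1, with a log2 fold change of 0.40, and its paralog Myt1l, with 0.52, and Bcl11a followed with 0.97. Their adjusted p was 0.264, 0.294 and 0.366 in edgeR. Without library 43 the log2 fold changes were 0.38, 0.34 and 0.38, all 3 had an unadjusted p under 0.05, beside 10.7% of all tested genes that were higher in that fit, and the list's median was 0.12. In library 43 Myt1l and Bcl11a were at 435 and 118 CPM, the highest of any library, and the lowest MFN2 and highest WT library of Myt1l were both at 183 CPM. Rest, the repressor of neuronal genes in other cells, averaged 23.4 CPM in MFN2 and 25.1 CPM in WT mice, with an adjusted p of 0.594 in edgeR.

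Proneural factors, which act upstream of Scratch genes during neurogenesis, were mostly too low to test. Of 8, 2 passed the filter, and 0 of them passed an FDR of 0.05 or an unadjusted p under 0.05 in edgeR, nor an FDR of 0.05 in DESeq2. The log2 fold change of Neurod1 was 0.83, and 0.12 without library 43, where it was at 8.45 CPM. Genes described elsewhere as targets of Scratch proteins, direct or indirect, numbered 3. The log2 fold change was 0.29 for Bbc3 (Puma) and -0.040 for Cdkn1c (p57). Without library 43, where Bbc3 was at 5.63 CPM, they were 0.036 and 0.11, and with libraries 72 to 76 alone against WT -0.14 and 0.15, so that neither direction held. The adjusted p was 0.666 and 0.968 in edgeR, and neither had an unadjusted p under 0.05 or passed in DESeq2. Cdh1 (E-cadherin) did not pass the filter. It averaged 0.313 CPM in WT mice and 1.27 CPM in MFN2 mice, where library 43 held 5.02 CPM.

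**Figure D3:**
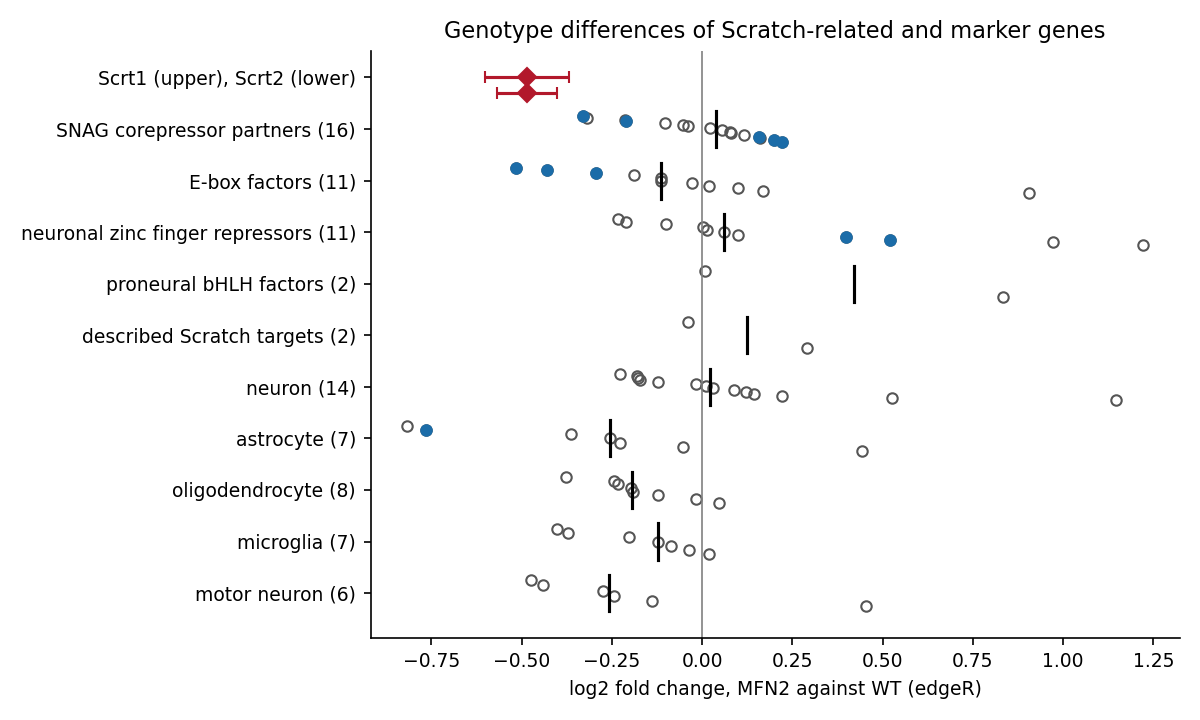
Log2 fold change of MFN2 against WT (horizontal axis, edgeR) for Scrt1 and Scrt2 (red diamonds with standard errors, no test) and for the tested genes of 10 lists, with the number of genes in brackets. Open circles are genes, filled blue circles those with an unadjusted p under 0.05 and black bars list medians. Scrt1 and Scrt2 lie together near -0.49, where Id1 is the closest of the E-box factors, and the medians of the neuron markers and SNAG partners lie at 0.021 and 0.039.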

How the data were processed

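The deposited values are raw counts for each Ensembl gene and library, which the authors made from trimmed 75-base reads by STAR alignment. The submitters' processing notes name GRCm38.p6. Which program counted the reads, and whether it used strand, is not given in the sources used here. The labels and the methods name different library kits. Symbols, lengths, positions and sequences came from the GENCODE M21 annotation and the GRCm38 genome (49289 of 49548 genes matched).

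Genes above 1 CPM in at least 3 libraries entered edgeR 4.0.16 under R 4.3.3, with TMM factors and the robust legacy quasi-likelihood test at a Benjamini-Hochberg FDR of 0.05. Log2 CPM used a prior count of 2. Standard errors were derived from the F statistic. Alternatives used DESeq2 1.42.0 and limma 3.58.1. Exact permutation tests were two-sided. The fits were tested on simulated data. Replicate pairs differed beyond counting noise (chi-square per gene of at least 5.34 in 34 pairs).

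The genes and the 15 lists were chosen with earlier results of these data known. Named genes are the pair, its nearest coding neighbours, the 5 genes most like each member, and up to 3 genes of a list with the lowest p. Further genes (Kdm1a, Rest, the low family members, Cdh1 and the marker genes given by library) were picked with their values in view. Expression of the transgene was not analysed here, and values of some single genes of the lists are not reported here.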

Additional observations from a re-analysis of the deposited data

Results flagged for a closer look

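The gap between a library and its nearest neighbour, divided by the range of its genotype group, was examined for Scrt1, Scrt2, their ratio and 9 marker sums, which gave 24 groups. Of these, 2 exceeded the critical value, where chance gives about 1.2. The forebrain marker sum of MFN2 library 43 (3744 CPM) had a ratio of 0.985. The astrocyte marker sum of MFN2 library 41 (8892 CPM) had a ratio of 0.584. The levels of Scrt1 and Scrt2 and their ratio were not among the 2.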

How the results depend on the processing

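No paired analysis was possible because no library number occurs in both genotypes. The log2 fold changes of Scrt1 and Scrt2 between genotypes were negative in all settings tried. They moved by more than the SD between MFN2 libraries in settings added after the data were seen: relative to the astrocyte markers (-0.11 for Scrt1 and -0.095 for Scrt2) and, for Scrt1, with MFN2 libraries 41 and 42 against WT (-0.15). Across fits that each left out 1 library they ranged from -0.55 to -0.44 for Scrt1 and from -0.51 to -0.45 for Scrt2.

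The number of genes past the FDR between genotypes was 0 (2386 at an unadjusted p under 0.05). It was 200 with DESeq2, 1 with MFN2 libraries 41 to 43 against WT, 1 with libraries 41 and 42, 3746 with libraries 72 to 76, and 0 to 19 with 1 library left out, above 0 without MFN2 libraries 41 (7), 43 (19) or 76 (1). Between number runs it was 342, with 1794 in DESeq2 and 1339 with all 12 libraries in 1 fit. It ranged from 31 to 2375 with 1 MFN2 library left out: 70 without 41, 2375 without 43, 64 without 72, 34 without 73, 31 without 74, 57 without 75 and 85 without 76. With 1 library left out, the run difference of Scrt1 ranged from -0.42 (without library 43, where it passed the FDR) to -0.079 (without 41), and that of Scrt2 from -0.16 to -0.070 (without 73). With upper-quartile scaling and with library size alone that of Scrt2 was -0.063 and -0.050.

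The correlation of the neuron marker mean with Scrt2 turned from 0.253 to -0.19 with Spearman's rho and ranged from -0.18 to 0.41 with 1 library left out, and that with Scrt1 from -0.42 to 0.15. Between the paralogs it ranged from 0.17 to 0.485. No correlation passed 0.05 in any setting. The cause was not tested. With 173 to 319 counts, differences of Scrt2 between single libraries within about its counting error of 5.60% to 7.60% were not detectable, and 1 library per mouse does not separate animal from library variation. The other alternatives kept the direction and the side of the threshold for the run differences of Scrt1 and Scrt2 and for the correlations. The genotype differences of the pair were not held to a threshold. The listed genes were refitted only with DESeq2, without library 43 and within each run against WT.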

Other observations

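Markers of the remaining cell types are given as values. Oligodendrocyte markers summed to 8350 CPM in MFN2 library 43, to between 21522 and 34547 CPM in the other MFN2 libraries and to between 23994 and 30692 CPM in WT libraries. Microglia markers ranged from 83.4 to 174 CPM in MFN2 and from 111 to 149 CPM in WT libraries, and endothelial markers from 133 to 197 CPM and from 155 to 190 CPM. Schwann cell markers summed to 435 CPM in MFN2 library 73, to 344 CPM in library 43 and to between 139 and 219.8 CPM in the other MFN2 libraries, beside 153 to 225 CPM in WT libraries.

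In edgeR, 0 tested genes of these, the motor neuron, the forebrain and the caudal Hox lists passed an FDR of 0.05 between genotypes. Of the 6 motor neuron genes, 5 had a negative log2 fold change. The median of that list was -0.26, beside 0.0038 over all tested genes, and it was -0.096 without library 43. At an unadjusted p under 0.05, 2 forebrain genes and 1 Schwann cell gene were higher and 1 endothelial gene was lower in MFN2 mice, beside 7.40% higher and 7.57% lower of all tested genes. Without library 43, 3 forebrain genes and 1 motor neuron gene were higher and 1 endothelial gene was lower, beside 10.7% and 10.4%, and 0 passed the FDR in edgeR. With all libraries DESeq2 called 1 forebrain gene, Nrgn (adjusted p = 0.000748), which was at 551 CPM in library 43, beside 1.25% of all tested genes.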
